A study of Oryza sativa with 12 samples.

Results

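Abscisic acid is the plant hormone of seed maturation, dormancy and drought responses, and its level in a tissue is set by synthesis and by breakdown. It is made in plastids from carotenoids: zeaxanthin epoxidase (ZEP) makes the epoxidised carotenoids, and 9-cis-epoxycarotenoid dioxygenases (NCED) cleave them, a step generally regarded as rate-limiting, after which short-chain dehydrogenase and aldehyde oxidase steps finish the hormone. Abscisic acid 8'-hydroxylases (ABA8OX), cytochrome P450 enzymes, start its breakdown towards phaseic acid. In cereal grain the hormone is known from grain filling, maturation and the restraint of precocious germination.

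The 8 genes described here are 1 zeaxanthin epoxidase, 4 dioxygenases and 3 hydroxylases, chosen by locus identifier, out of 50708 loci in the deposited table of counts. Where a locus had several rows, the row with the highest mean count was taken. RNA was measured in 12 libraries of 2 near-isogenic lines, XN0437S (heat-sensitive) and XN0437T (heat-tolerant), with 3 libraries of each line grown as control and 3 exposed to stress from high night temperature while grains were filling. Tissue is labelled only as rice, and the labels give neither the organ nor the temperature or length of the stress. Separate plants are not named as the source of a group's libraries, and p-values therefore measure a spread between libraries that could be technical.

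Library totals ranged from 85496090 to 100353570 counts. Endosperm markers, which are storage and starch genes and the NAC domain gene NAC20, were abundant. These 5 summed to between 18660 and 19870 counts scaled to library size (CPM) in control libraries and between 6768 and 7058 under stress. Of them 5 of 5 fell in each line. The sum of 3 embryo markers lay between 4824 and 5987 CPM in control and between 3742 and 4445 under stress. Of these 3, 1 rose and 2 fell in the sensitive line, REG2 by 0.43 and the oleosin genes OLE16 and OLE18 by -0.58 and -0.52 on the log2 scale, and 3 fell in the tolerant line. The sum of 5 markers of green tissue lay between 568.3 and 693.1 CPM over the 12 libraries, with 2 genes rising and 1, RCA, falling in each line, and no marker of the 3 sets was at 0 in any group. How far these differences take part in the results on the 8 genes was not tested, and in bulk RNA fewer cells of a type and less RNA per cell cannot be told apart. Scaling matters as well: trimmed mean (TMM) factors, which correct totals for a few dominant genes, were 0.838 to 1.18, and without them the median log2 change of all tested loci under stress was 0.456 in the sensitive and 0.367 in the tolerant line. With the factors these medians were 0.04 and 0.05. Levels here and below are CPM scaled with them unless FPKM is named. The marker calls above depend on this scaling. With library totals alone, embryo markers gave 1 higher and 1 lower in the sensitive line, and 0 and 2 in the tolerant line. Green tissue markers gave 4 higher and 0 lower, and 3 higher and 1 lower, while 5 of 5 endosperm markers fell in each line. With limma on log2 FPKM, REG2 rose in the tolerant line (adjusted p = 0.0136 and 0.0192).

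The 8 genes lie on 7 chromosomes, with positions as the deposited table gives them. ZEP1 (LOC_Os04g37619) is at chromosome 4, 22369632 to 22376614, plus strand. NCED1 (LOC_Os02g47510) is at chromosome 2, 29026070 to 29028259, minus strand, and the hydroxylase gene ABA8OX1 (LOC_Os02g47470) is on the same chromosome at 28995717 to 28998581, plus strand. A single annotated and tested locus, LOC_Os02g47500, lies between this pair, which hold a synthesis and a breakdown enzyme. NCED3 (LOC_Os03g44380) is at chromosome 3, 24959107 to 24961777, NCED4 (LOC_Os07g05940) at chromosome 7, 2870686 to 2872832, and NCED5 (LOC_Os12g42280) at chromosome 12, 26268230 to 26270794, each on the plus strand. ABA8OX2 (LOC_Os08g36860) is at chromosome 8, 23288613 to 23294164, and ABA8OX3 (LOC_Os09g28390) at chromosome 9, 17252028 to 17255514, both on the minus strand. The annotation in the table names the enzyme for 7 of the genes; for NCED4 it gives a locus name alone, and the gene's name here comes from the list. A further rice dioxygenase gene, NCED2 (LOC_Os12g24800), had a count of 0 in all 12 libraries.

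Stress changed both sides of the pathway. In the sensitive line 4 of the 8 genes rose and 1 fell (edgeR quasi-likelihood test, called at a p under 0.05 after Benjamini-Hochberg adjustment across 33281 tested loci). That is 62.5% of the genes, beside 32.1% of all tested loci, of which 16.3% rose and 15.9% fell. In the tolerant line 4 rose and 2 fell, 75% of the genes, beside 33.2% of all tested loci, of which 16.7% rose and 16.6% fell. The hydroxylase genes rose in each line, 3 of 3, while the dioxygenase genes split: NCED4 rose, NCED5 fell, and NCED1 and NCED3 did not pass the test. The median log2 change of the 8 was 0.51 in the sensitive and 0.61 in the tolerant line. All 8 passed the filter on low counts, with between 88 and 6951 counts in a library. Whether stress and control libraries overlap is given below as a description. How many of all tested loci separate under stress was not counted.

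**Figure D1:**
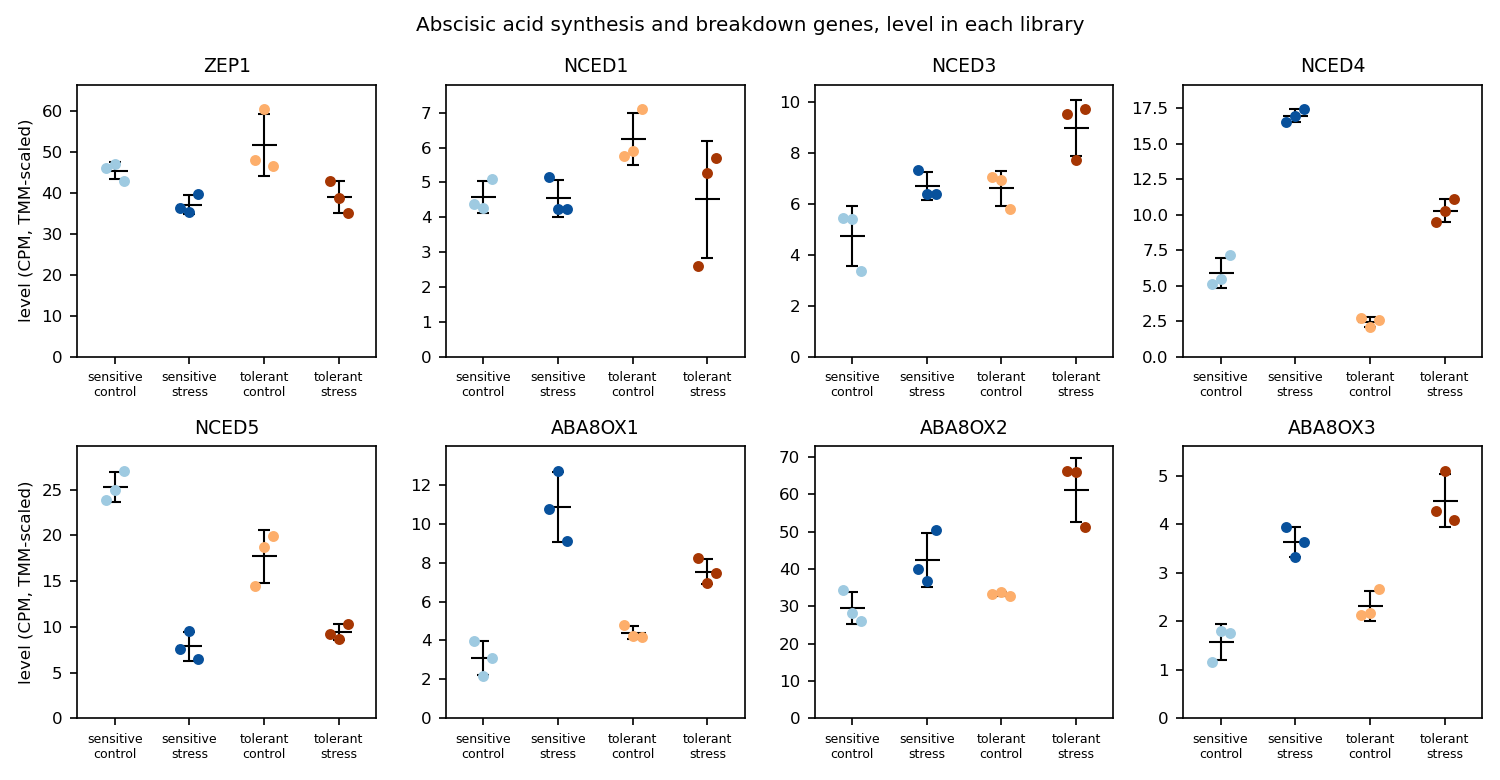
Level of each of the 8 genes in CPM (linear axis from 0, scaled with TMM factors) in the 4 groups, with 1 point per library and the bar and whiskers as mean and SD of 3 libraries. NCED4 and the 3 ABA8OX genes were higher in every stress library than in any control library of the same line, and NCED5 was lower.

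ZEP1, which makes the epoxidised carotenoids, had the highest CPM of the 8 in control in both lines. In the sensitive line it stood at 46.1, 47.1 and 43.0 CPM in control and at 36.3, 35.2 and 39.7 CPM under stress. The tolerant line held 48.0, 60.3 and 46.5 CPM in control and 43.0, 38.8 and 35.1 CPM under stress. Stress libraries lay below control libraries without overlap in each line. The decrease passed the test in the tolerant line (log2 change -0.41 ± 0.11 SE, adjusted p = 0.0106) and missed it in the sensitive line (log2 change -0.29, 95% interval -0.52 to -0.06, adjusted p = 0.055). This small change depended on the scaling: with library totals alone the log2 changes were -0.09 (adjusted p = 0.614) and 0.12 (adjusted p = 0.465), and the tolerant call was also lost without tolerant stress replicate 3 (log2 change -0.34, adjusted p = 0.0506). DESeq2 called the sensitive decrease as well (adjusted p = 0.038), as did counts divided by 4 (adjusted p = 0.0398) and the fit without tolerant control replicate 2 (adjusted p = 0.0224).

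NCED5 was the dioxygenase gene with the most RNA per length in control, and its RNA fell under stress. In the sensitive line its level was 23.9, 24.9 and 27.1 CPM in control and 7.56, 9.57 and 6.44 CPM under stress. Tolerant libraries had 14.4, 18.7 and 19.97 CPM in control and 9.20, 8.62 and 10.3 CPM under stress. Each stress library lay below each control library of its line. Stress levels were 0.311 times the control level in the sensitive line (log2 change -1.69 ± 0.16, adjusted p = 4.22e-06) and 0.53 times in the tolerant line (log2 change -0.92 ± 0.15, adjusted p = 0.000517). The tolerant change was -0.59 with library totals alone and still passed (adjusted p = 0.00589).

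NCED4 moved the other way. Its level in the sensitive line was 5.11, 5.46 and 7.15 CPM in control and 16.5, 17.0 and 17.4 CPM under stress. Levels in the tolerant line were 2.71, 2.07 and 2.61 CPM in control and 9.49, 10.3 and 11.1 CPM under stress. The groups did not overlap in either line, and the 3 tolerant control libraries held the lowest values of the gene. It rose 2.88-fold in the sensitive line (log2 change 1.53 ± 0.15, adjusted p = 5.69e-06) and 4.18-fold in the tolerant line (log2 change 2.06 ± 0.15, adjusted p = 3.9e-07), the latter being the largest fitted stress change among the 8 genes.

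NCED3, another dioxygenase gene, was at 5.45, 5.43 and 3.37 CPM in sensitive control and 7.36, 6.39 and 6.402 CPM in sensitive stress libraries. The tolerant line had it at 7.07, 6.97 and 5.82 CPM in control and 9.56, 7.74 and 9.73 CPM under stress. Stress libraries lay above control libraries in each line, yet neither difference passed the edgeR test. The log2 difference was 0.50 (95% interval 0.10 to 0.90, adjusted p = 0.0545) in the sensitive and 0.45 (0.05 to 0.84, adjusted p = 0.0803) in the tolerant line. With library totals alone both passed, at 0.91 (adjusted p = 0.0026) and 0.75 (adjusted p = 0.0089), and both passed with limma on log2 FPKM (adjusted p from 0.00285 to 0.00822). The sensitive difference also passed with DESeq2 (adjusted p = 0.0372), counts divided by 4 (adjusted p = 0.0471) and the replicate number as a block (adjusted p = 0.0494), and without sensitive control replicate 1 or 2. The tolerant difference passed without sensitive control replicate 3 (adjusted p = 0.025) and not with DESeq2 (adjusted p = 0.0636).

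NCED1 showed the least response in the sensitive line, where its level was 4.38, 4.28 and 5.10 CPM in control and 5.16, 4.24 and 4.23 CPM under stress. These groups overlapped, and the log2 difference was -0.01 (95% interval -0.54 to 0.51, adjusted p = 0.975). For the tolerant line the level was 5.75, 5.90 and 7.10 CPM in control and 2.60, 5.27 and 5.69 CPM under stress. Tolerant stress replicate 1 was well below the other two, and although the stress libraries all lay below the controls, the difference did not pass the test (log2 difference -0.47, 95% interval -0.99 to 0.06, adjusted p = 0.166). Without tolerant stress replicate 1 it was -0.19 (adjusted p = 0.461).

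Among the breakdown genes, ABA8OX1 had the largest change in the sensitive line. Its level there was 3.98, 2.19 and 3.12 CPM in control and 10.7, 12.7 and 9.10 CPM under stress. Tolerant libraries showed 4.77, 4.24 and 4.17 CPM in control and 8.22, 6.93 and 7.46 CPM under stress. Stress and control did not overlap in either line. The gene rose 3.5-fold in the sensitive line (log2 change 1.81 ± 0.20, adjusted p = 2.06e-05) and 1.72-fold in the tolerant line (log2 change 0.78 ± 0.20, adjusted p = 0.00837).

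ABA8OX2 was the most abundant of the hydroxylase genes in every group. In the sensitive line it was at 34.3, 28.3 and 26.2 CPM in control and 39.9, 36.9 and 50.5 CPM under stress. The tolerant line had 33.4, 33.9 and 32.7 CPM in control and 66.3, 66.0 and 51.2 CPM under stress. The groups did not overlap, and replicate 3 stood apart from the other two under stress in each line. It rose 1.43-fold in the sensitive line (log2 change 0.52 ± 0.14, adjusted p = 0.0111) and 1.84-fold in the tolerant line (log2 change 0.88 ± 0.14, adjusted p = 0.000284). Without sensitive stress replicate 3 the sensitive change was 0.38 and missed the test (adjusted p = 0.0539); with library totals alone it was 0.93 (adjusted p = 0.000274).

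ABA8OX3 had the lowest mean CPM of the 8 genes in each group. In the sensitive line it was at 1.15, 1.81 and 1.76 CPM in control and at 3.95, 3.32 and 3.64 CPM under stress. Tolerant levels were 2.12, 2.17 and 2.67 CPM in control and 4.28, 5.11 and 4.08 CPM under stress. No stress library overlapped a control library of its line. The gene rose 2.31-fold in the sensitive line (log2 change 1.21 ± 0.21, adjusted p = 0.000627) and 1.94-fold in the tolerant line (log2 change 0.95 ± 0.20, adjusted p = 0.00281). A second row of the same locus, without a strand and inside the first, held at most 33 counts in a library and is not part of these values.

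**Figure D2:**
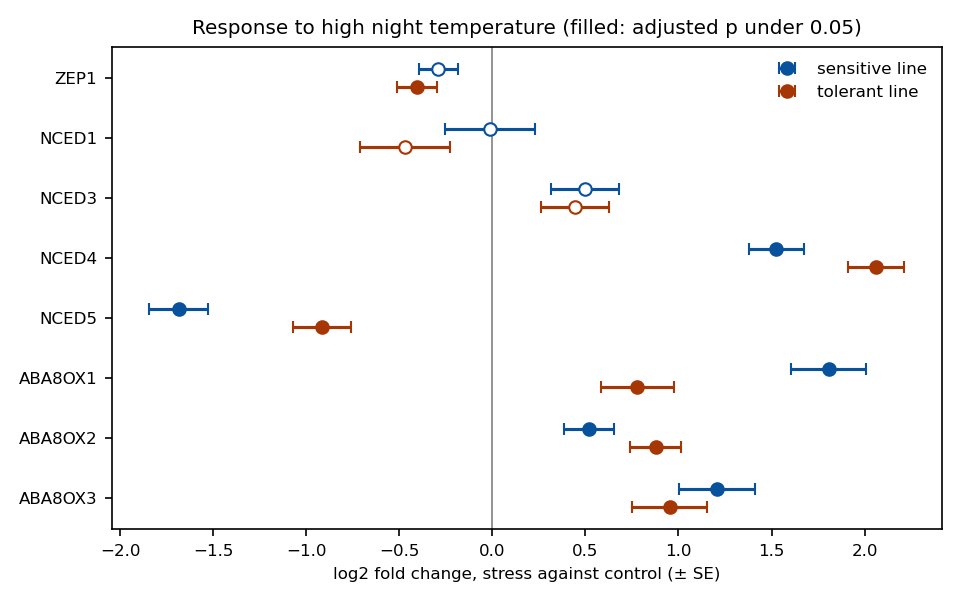
Fitted log2 fold change (stress against control, horizontal axis) of each gene with its SE, for the sensitive line in blue and the tolerant line in brown; filled points passed an adjusted p of 0.05. NCED4 and the ABA8OX genes lie to the right of 0 in both lines and NCED5 to the left, from -1.69 for NCED5 in the sensitive line to 2.06 for NCED4 in the tolerant line.

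Levels of different genes were compared per length, as FPKM within a group. In sensitive control the order began with NCED5 at 6.42 ± 0.49 FPKM (SD, n = 3), ABA8OX2 at 6.24 ± 0.83 and ZEP1 at 5.81 ± 0.21, whose ranges overlapped from each to the next. NCED4 followed at 1.79 ± 0.35 FPKM, apart from ZEP1 above and NCED1 below. NCED1, NCED3, ABA8OX1 and ABA8OX3 ended the order, each overlapping the next, down to 0.529 ± 0.126 FPKM for ABA8OX3. Under stress in that line ABA8OX2 led at 11.9 ± 2.09 FPKM, followed without overlap by NCED4 at 6.87 ± 0.31 and ZEP1 at 6.34 ± 0.45, which overlapped each other. NCED5 stood at 2.66 ± 0.56 FPKM, with a range that overlapped those of ABA8OX1 above it and NCED3 below it.

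The tolerant line had another order in control. ABA8OX2 at 7.44 ± 0.29 FPKM and ZEP1 at 7.01 ± 1.14 FPKM overlapped and led, NCED5 followed at 4.75 ± 0.71 FPKM without overlap, and NCED4 was last of the 8 at 0.789 ± 0.105 FPKM, overlapping ABA8OX3 at 0.823 ± 0.087 FPKM. Under stress ABA8OX2 reached 17.2 ± 2.09 FPKM, ZEP1 stood at 6.65 ± 0.57 FPKM and NCED4 at 4.16 ± 0.41 FPKM, with no overlap between these neighbours. NCED5 at 3.18 ± 0.37 FPKM, NCED3 at 2.93 ± 0.40 FPKM and ABA8OX1 at 2.59 ± 0.23 FPKM overlapped from each to the next, and NCED1 was last at 1.79 ± 0.68 FPKM. ABA8OX2 thus had the highest mean of the 8 genes in 3 of the 4 groups.

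The make-up of the dioxygenase RNA turned over with stress. NCED5 held 59.8% ± 0.60 (SD, n = 3) of the summed NCED FPKM in sensitive control and 19.6% ± 3.39 under stress. NCED4 held 16.6% ± 2.13 and then 50.9% ± 2.96. In the tolerant line NCED5 went from 51.4% ± 4.38 to 26.4% ± 1.55 and NCED4 from 8.63% ± 1.64 to 34.6% ± 1.01. NCED4 was the leading dioxygenase gene under stress in both lines, by a wider margin in the sensitive line. Shares are scale-free within a library, and they are given as descriptions without a test.

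The remaining dioxygenase RNA came from NCED3 and NCED1. NCED3 held 10.9% ± 3.20 of the sum in sensitive control, 16.2% ± 1.25 in sensitive stress, 18.7% ± 3.36 in tolerant control and 24.4% ± 3.31 in tolerant stress libraries. NCED1 held 12.7% ± 0.65, 13.3% ± 1.46, 21.3% ± 1.32 and 14.7% ± 4.67 in the same order. These shares of NCED3 and NCED1 stayed below that of NCED4 under stress in both lines, whereas in tolerant control each of them was above it.

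**Figure D3:**
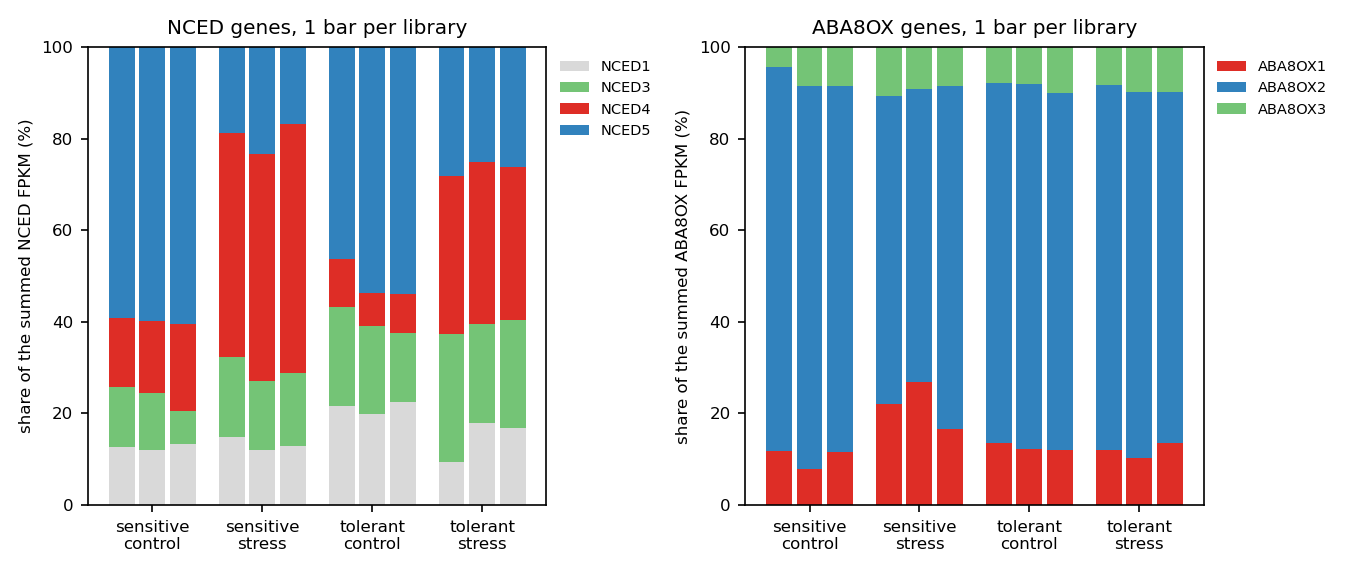
Share of each gene in the summed FPKM of the NCED genes (left) and of the ABA8OX genes (right), in percent on axes from 0 to 100, with 1 stacked bar per library and 3 libraries in each of the 4 groups. NCED5 shrank from about 59.8% to 19.6% in the sensitive line as NCED4 grew, while ABA8OX2 kept the largest share of the hydroxylase RNA throughout.

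Within the hydroxylase family ABA8OX2 held most of the summed FPKM: 82.4% ± 2.18 in sensitive control, 68.7% ± 5.63 in sensitive stress, 78.6% ± 0.98 in tolerant control and 78.8% ± 1.83 in tolerant stress libraries. ABA8OX1 held 10.4% ± 2.22 in sensitive control and 21.8% ± 5.22 under stress, against 12.6% ± 0.87 and 11.98% ± 1.69 in the tolerant line. The share of ABA8OX3 lay between 7.18% ± 2.35 and 9.46% ± 1.03 in the 4 groups. The ratio of ABA8OX1 to ABA8OX2 was 0.142, 0.0942 and 0.145 in the sensitive control libraries and 0.329, 0.421 and 0.220 under stress. Tolerant libraries had 0.174, 0.153 and 0.156 in control and 0.151, 0.128 and 0.178 under stress, so the groups separated in the sensitive line and overlapped in the tolerant line.

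The balance of breakdown to synthesis RNA was described by the ratio of the summed ABA8OX FPKM to the summed NCED FPKM in each library. In the sensitive line it was 0.846, 0.677 and 0.608 in control and 1.22, 1.17 and 1.46 under stress. Its tolerant values were 1.14, 1.02 and 0.945 in control and 2.11, 1.99 and 1.40 under stress. Stress libraries lay above control libraries in each line, and the tolerant control libraries also lay above the sensitive control libraries. Under stress the lines overlapped, with 1 tolerant library at 1.40 below the highest sensitive library. The ratio of NCED4 to NCED5 was 0.255, 0.262 and 0.315 in sensitive control and 2.61, 2.12 and 3.24 in sensitive stress libraries. It was 0.224, 0.132 and 0.156 in tolerant control and 1.23, 1.42 and 1.28 in tolerant stress libraries, so it crossed 1 in each line. As RNA levels, these ratios say nothing of enzyme activity or of the hormone itself, neither of which was measured in the files used here.

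**Figure D4:**
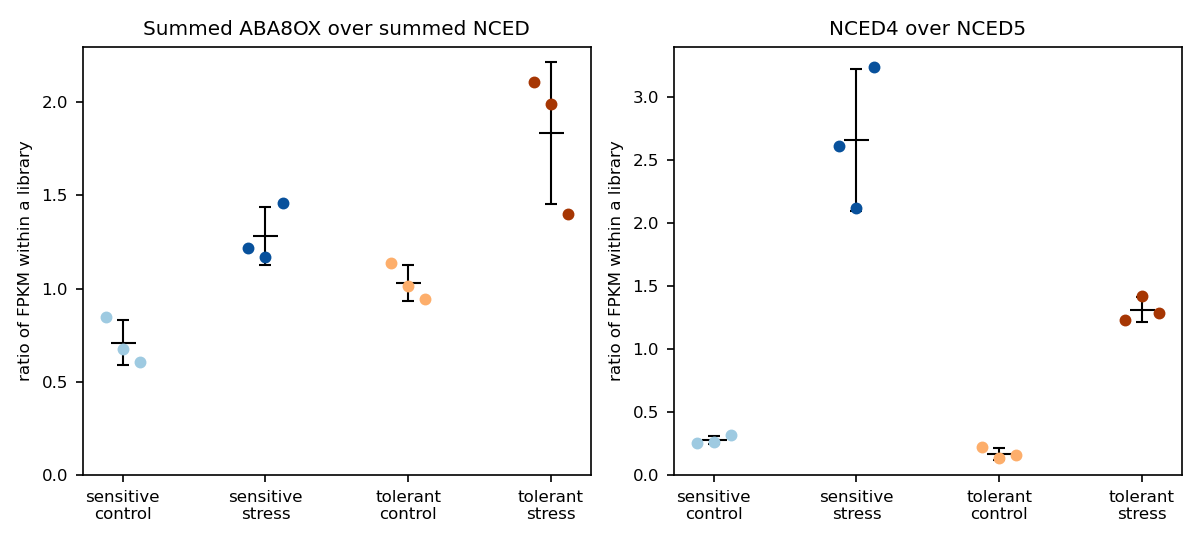
Ratio of the summed ABA8OX FPKM to the summed NCED FPKM (left) and of NCED4 to NCED5 FPKM (right) in each library, on linear axes from 0, with mean and SD of 3 libraries per group. Both ratios are higher in the stress libraries than in the control libraries of the same line; the left one reaches 2.11 in the tolerant line and the right one 3.24 in the sensitive line.

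The lines were compared next, in control and under stress; these comparisons use the same libraries as the stress comparisons above. In control 1 of the 8 genes differed, 12.5% of them beside 5.42% of all tested loci (2.53% higher and 2.89% lower in the tolerant line). NCED4 was lower in the tolerant line at 0.417 times the sensitive level (2.46 ± 0.34 against 5.91 ± 1.09 CPM, SD, n = 3; log2 difference -1.26 ± 0.15 SE, adjusted p = 0.000417). No gene was called higher in the tolerant line by edgeR, DESeq2 or limma, although 3 had an unadjusted p under 0.05 in edgeR. Libraries of the tolerant line lay above the sensitive ones without overlap for NCED1, NCED3, ABA8OX1 and ABA8OX3 and below them for NCED5. None of these passed in edgeR, and how many of all tested loci separate in this way was not counted. For NCED5 the log2 difference was -0.51 (95% interval -0.85 to -0.18, adjusted p = 0.0758; DESeq2 adjusted p = 0.0321). For ABA8OX1 it was 0.50 (0.07 to 0.94, adjusted p = 0.192) and for NCED3 0.48 (0.08 to 0.88, adjusted p = 0.177). For ABA8OX3 it was 0.56 (0.11 to 1.01, adjusted p = 0.157) and for NCED1 0.45 (-0.08 to 0.97, adjusted p = 0.362).

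Under stress 1 of the 8 genes differed between lines, beside 3.4% of all tested loci (1.71% higher and 1.69% lower in the tolerant line), and it was again NCED4. Its level was 10.3 ± 0.82 CPM in the tolerant and 17.0 ± 0.45 CPM in the sensitive line (log2 difference -0.72 ± 0.14, adjusted p = 0.0148). The call did not outlast leaving out sensitive stress replicate 2 or 3 or tolerant stress replicate 1 or 2; the adjusted p then reached 0.0737, with differences between -0.78 and -0.67 over the 12 fits that each omit a library. No gene was called higher in the tolerant line by edgeR, 2 had an unadjusted p under 0.05, and DESeq2 called 1. That gene was ABA8OX2, with 61.2 ± 8.61 CPM in the tolerant and 42.4 ± 7.13 CPM in the sensitive line and no overlap (log2 difference 0.53, 95% interval 0.23 to 0.82, adjusted p = 0.0567 in edgeR and 0.00292 in DESeq2). ABA8OX1 lay lower in each tolerant stress library (log2 difference -0.53, 95% interval -0.95 to -0.10, adjusted p = 0.216).

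Whether the lines responded unequally was tested directly, as the tolerant minus the sensitive response. No gene of the 8 passed in edgeR, beside 2.61% of all tested loci (1.27% higher and 1.34% lower); 3 had an unadjusted p under 0.05, DESeq2 called 2, and limma on log2 FPKM called 0. ABA8OX1 had the largest estimate, a log2 difference of -1.03 (95% interval -1.63 to -0.43, adjusted p = 0.0796; DESeq2 adjusted p = 0.019), its rise being smaller in the tolerant line. NCED5 had 0.77 (0.30 to 1.24, adjusted p = 0.0936; DESeq2 adjusted p = 0.0265), its fall being smaller in the tolerant line. NCED4 had 0.54 (0.09 to 0.98, adjusted p = 0.238). Leaving out sensitive control replicate 1 brought ABA8OX1 to -1.25 (adjusted p = 0.0269), and leaving out sensitive stress replicate 2 brought NCED5 to 0.94 (adjusted p = 0.0378). For NCED3 the estimate was -0.06 (95% interval -0.61 to 0.50, adjusted p = 0.977) and for ZEP1 -0.12 (-0.44 to 0.21, adjusted p = 0.824).

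Upstream of the 8 genes lie the enzymes that supply carotenoids, and a list of carotenoid genes was taken for them. That list also holds enzymes of the lutein branch, among them LCYE, and violaxanthin de-epoxidase, which reverses the ZEP step. Of 14 listed genes, all tested, 7 fell, 0 rose and 7 did not pass in the sensitive line, beside 15.9% lower and 16.3% higher over all tested loci. In the tolerant line 8 fell, 1 rose (BCH3) and 5 did not pass, beside 16.6% lower and 16.7% higher. LCYE was among these 8, a call lost with library totals alone. The list medians were -0.33 and -0.43 beside 0.04 and 0.05 over all tested loci. Beside these counts from edgeR, library totals alone gave 4 higher and 4 lower in the sensitive line with a list median of 0.09, and 1 higher and 6 lower in the tolerant line with a median of -0.12, both below the medians of all tested loci under that scaling. The split between risers and fallers in the sensitive line thus changes with the scaling. Phytoene synthases open the carotenoid pathway, and PSY3 had the largest decrease, from 3.37 ± 0.39 to 0.61 ± 0.16 CPM in the sensitive line (log2 change -2.46 ± 0.25, adjusted p = 9.19e-06) and from 4.65 ± 0.90 to 0.65 ± 0.10 CPM in the tolerant line (-2.84 ± 0.25, adjusted p = 2.24e-06). PSY3 has 2 rows in the table; the annotated row was taken, a choice made after values were seen, and the other row, without a description, changed by -0.70 in each line and did not pass (adjusted p = 0.124).

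PSY1 fell by 1.25 ± 0.14 and 1.38 ± 0.14 on the log2 scale in the sensitive and tolerant line, and BCH2, a beta-carotene hydroxylase on the way to zeaxanthin, fell by 1.24 ± 0.10 and 1.26 ± 0.10. With library totals alone the decreases of PSY2, BCH1 and PDS in the sensitive line did not pass. Of 11 listed genes for other synthesis steps 7 were tested. In each line 1 rose and 2 fell (medians -0.13 and -0.15), where 32.1% and 33.2% of all tested loci were called. The riser was AO-a, a row that merges LOC_Os03g57680 and LOC_Os03g57690 of the aldehyde oxidase family, the enzymes of the last step (log2 change 0.54 ± 0.04 sensitive and 0.44 ± 0.04 tolerant). The family members AO-f and AO-g fell, AO-g by 0.61 ± 0.05 in the sensitive and by 0.87 ± 0.05 in the tolerant line. With library totals alone 2 genes of this list were higher and 2 lower in the sensitive line (median 0.29). In the tolerant line 1 was higher and 2 lower (median 0.17). AO-a was also higher in the tolerant than the sensitive line in control (log2 difference 0.36 ± 0.04, adjusted p = 0.000609) and under stress (0.27 ± 0.04, adjusted p = 0.00559), the latter call being lost with library totals alone (adjusted p = 0.0834).

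Downstream, the hormone is perceived by receptors. Of 9 listed receptor genes of the PYL family 7 were tested, of which 4 rose in the sensitive and 5 in the tolerant line and 0 fell (medians 0.55 and 0.63), where 16.3% and 16.7% of all tested loci rose. PYL11 changed by 0.82 ± 0.09 and 0.63 ± 0.09. PYL5, with group means from 0.61 to 1.88 CPM, changed by 1.43 ± 0.39 and 1.41 ± 0.39, with the call lost in each line on leaving out either of 2 libraries. PYL4 had 0, 0 and 4 counts in sensitive control and 191, 164 and 102 in sensitive stress libraries, and 25, 3 and 0 against 69, 134 and 162 in the tolerant line. Its tolerant call was lost on leaving out any of 4 libraries, and with so few control counts no fold is given. Of the clade A phosphatases, which hold the signal off, 10 were listed and 9 tested. Among these 1 rose and 2 fell in each line, with 32.1% and 33.2% of all tested loci called in either direction. PP2C51 changed by 0.999 ± 0.198 and 0.72 ± 0.20, and PP2C53 by -0.48 ± 0.12 and -0.72 ± 0.12. The other faller was PP2C08 in the sensitive line (-0.62 ± 0.21, adjusted p = 0.0404) and PP2C06 in the tolerant line (-0.325 ± 0.08). Both of these calls were lost with library totals alone and with limma on log2 FPKM. The call on PP2C08 was also lost with the replicate block (adjusted p = 0.0728) and on leaving out several single libraries. The tolerant call on PP2C51 was lost without tolerant control replicate 2 (adjusted p = 0.0549) or tolerant stress replicate 2 (adjusted p = 0.0626), and the sensitive call on PP2C53 with library totals alone (log2 change -0.06). With library totals alone 3 phosphatase genes were higher and 0 lower in XN0437S, against 3 and 1 in XN0437T; of the receptors 5 rose and 0 fell in each line.

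Some SnRK2 kinases carry the signal once the phosphatases release them, and the list was not limited to these. Of 10 kinase genes, 5 were higher and 2 lower with stress in XN0437S, and 6 were higher and 3 lower in XN0437T (medians 0.33 and 0.61), set against 32.1% and 33.2% of all tested loci called; with library totals alone these counts were 6 and 0, and 6 and 1. SAPK10 rose from 5.70 ± 0.66 to 14.3 ± 0.39 CPM in the sensitive and from 7.58 ± 0.97 to 16.2 ± 0.79 CPM in the tolerant line (log2 changes 1.33 ± 0.12 and 1.09 ± 0.12). SAPK3 changed by 0.87 ± 0.15 and 0.84 ± 0.15. The decreases of SAPK4 and SAPK5 in the sensitive line, and of SAPK1 and SAPK4 in the tolerant line, did not pass with library totals alone. The sensitive call on SAPK5 was also lost without the filter (adjusted p = 0.0508) and with the replicate block (adjusted p = 0.0669). In control SAPK1 was higher in the tolerant line (0.41 ± 0.10, adjusted p = 0.0332), a call lost on leaving out any of 7 libraries.

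Among 7 transcription factor genes of the pathway, 2 were higher and 2 lower with stress in XN0437S and 1 was higher in XN0437T, with medians of -0.37 and 0.03, where 32.1% and 33.2% of all tested loci were called; library totals alone gave 3 higher and 0 lower, and 2 higher and 0 lower. BZIP12 rose in both, by 0.68 ± 0.18 and 1.099 ± 0.178, the former call being lost without sensitive stress replicate 3. BZIP23 rose by 1.32 ± 0.40 in the sensitive line, a call lost on leaving out any of 3 libraries. BZIP46 fell by 1.05 ± 0.25 in the sensitive line and was higher in the tolerant line under stress (log2 difference 1.18 ± 0.25, adjusted p = 0.0219). The former call was lost with library totals alone (adjusted p = 0.0668) and with limma on log2 FPKM (adjusted p = 0.0994 and 0.0968). The latter was lost without sensitive stress replicate 1 or 2 or any tolerant stress library (adjusted p from 0.0519 to 0.0909). It was also lost with the replicate block (adjusted p = 0.0529). Of 7 target genes of the hormone, proteins of late seed maturation and dehydration, 4 were higher with stress in XN0437S, and 3 were higher and 1 lower in XN0437T (medians 0.81 and 0.49), beside the same shares of all tested loci; library totals alone gave 7 higher, and 5 higher with 0 lower. RAB16D, a dehydrin gene, had 22, 45 and 75 counts in sensitive control and 694, 842 and 951 in sensitive stress libraries, and 61, 54 and 80 against 1416, 1343 and 1228 in the tolerant line. Its log2 changes were 3.66 ± 0.33 (adjusted p = 3.31e-06) and 4.04 ± 0.33 (adjusted p = 1.1e-06), the largest of that list. RAB16C rose by 1.49 ± 0.16 and 1.05 ± 0.16, while EM1, a late embryogenesis gene, fell by 0.45 ± 0.05 in the tolerant line, a call lost with library totals alone. RAB16A rose by 1.05 ± 0.35 in the sensitive line (edgeR adjusted p = 0.0357). That call was lost on leaving out any sensitive control library or sensitive stress replicate 1 or 3 (adjusted p from 0.0531 to 0.128). In control LEA3 was higher in the tolerant line, at 50.6 ± 3.78 against 34.2 ± 2.62 CPM (log2 difference 0.57 ± 0.09, adjusted p = 0.0022).

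**Figure D5:**
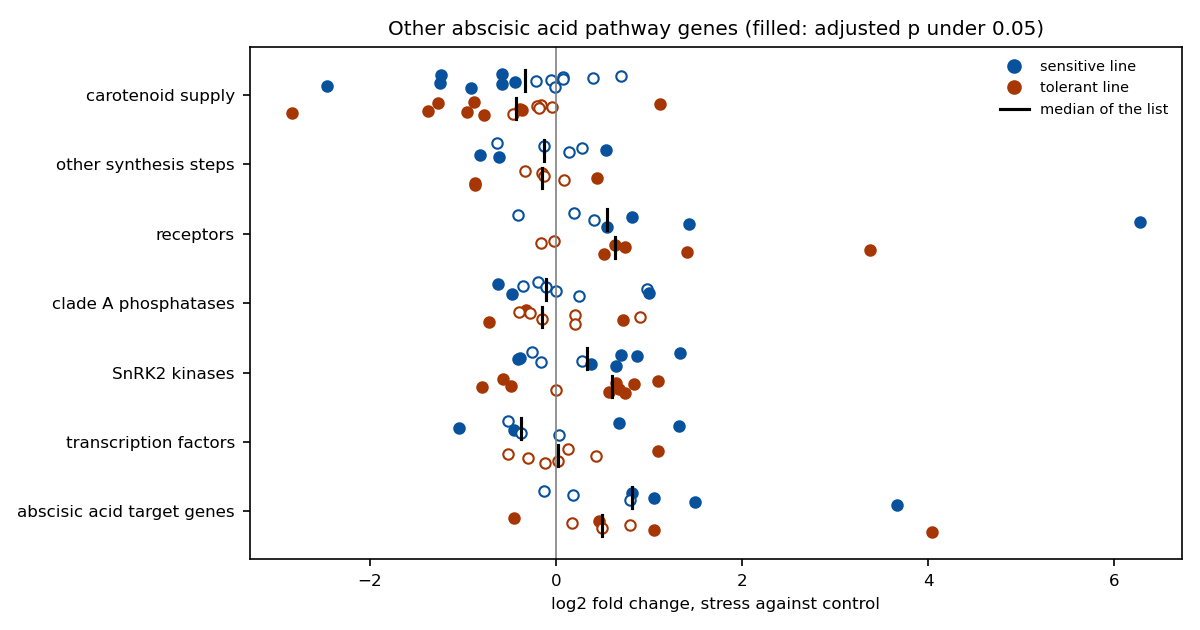
Fitted log2 fold change (stress against control) of each tested gene in 7 lists of other abscisic acid pathway genes, sensitive line in blue and tolerant line in brown, filled where an adjusted p of 0.05 was passed; black bars are list medians. The carotenoid supply medians lie at -0.33 and -0.43 and those of the receptors at 0.55 and 0.63; the far-right receptor point is PYL4, whose control libraries held 25 counts or fewer.

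Profiles over the 12 libraries were also compared with those of the other tested loci that have a locus identifier. The measure was the root mean square (RMS) difference of centred log2 CPM, a description without a test. The nearest to NCED5 was LOC_Os02g26210, annotated as flowering-promoting factor 1-like protein 3, with an RMS difference of 0.178 where the RMS of NCED5 itself was 0.704. The nearest to ABA8OX1 was LOC_Os06g11270, a putative UDP-glucosyltransferase, at 0.118 where ABA8OX1 had 0.734. NCED4, with the widest profile at 1.04, had its nearest at 0.249, the lipid-transfer protein gene LOC_Os12g02300. For ABA8OX2 it was the UDP-glucose 4-epimerase gene LOC_Os09g35800 at 0.121 (own RMS of ABA8OX2 0.427). For ABA8OX3 it was a row annotated as scarecrow-like 9 at 0.141 (own RMS 0.617), and for ZEP1 the myosin gene LOC_Os10g34710 at 0.089 (own RMS 0.217). NCED1 and NCED3 had their nearest at 0.166 and 0.145 with own RMS of 0.347 and 0.388.

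Neighbouring genes gave a last view of the loci, and only some of them are described, without a set rule. LOC_Os12g42300 beside NCED5 changed by -0.68 and -1.06 in the sensitive and tolerant line (edgeR adjusted p = 8.29e-06 and 1.13e-07), where NCED5 also fell. LOC_Os07g05880 beside NCED4 changed by -0.345 and -0.55 (adjusted p = 0.00105 and 2.18e-05), where NCED4 rose. LOC_Os02g47500, annotated as a WAT1-related protein, ends 939 bases from NCED1 on the opposite strand and starts 23082 bases beyond ABA8OX1. It fell by 0.64 in the sensitive line (adjusted p = 0.0207) and had a log2 difference of -0.52 in the tolerant line (adjusted p = 0.0506), while ABA8OX1 rose and NCED1 did not pass in either line. The nearest annotated and tested loci around ABA8OX3 were LOC_Os09g28370, 7973 bases away on its left, and the alpha-amylase gene LOC_Os09g28400, 33478 bases away on its right. The level of the alpha-amylase gene was 11.8, 7.59 and 8.34 CPM in sensitive control and 6.03, 4.78 and 6.22 CPM in sensitive stress libraries, and in the tolerant line it held 0, 0 and 4 counts in control and 19.1, 21.95 and 22.1 CPM under stress. ABA8OX3 itself rose in both lines. No source used here says how reads shared between similar copies were assigned or whether counting used strand.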

How the data were processed

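RNA was depleted of ribosomal RNA with Ribo-Zero Gold, strands were marked by dUTP and read pairs of 150 bases were made, per the labels' protocols. The authors deposited raw counts and FPKM for each locus, as named in the file headers; an FPKM of 0.0001 stands for a count of 0. The submitters' processing notes list cutadapt 1.9, HISAT2 2.2.1 and StringTie 2.1.6 beside DESeq2 and edgeR, with no roles. They list a mouse build, mm10, although the table holds rice MSU identifiers, and no source used here gives the build of the coordinates. Between 37.59% and 40.79% of counts from 1 to 20 were multiples of 4 in a library, which may make low counts less precise, and dividing counts by 4 was an alternative.

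The main test was edgeR 4.0.16 (R 4.3.3): filterByExpr left 33281 loci, TMM factors scaled the libraries, and 4 group means were fitted by quasi-likelihood (8 residual degrees of freedom), giving 2-sided tests of 5 comparisons adjusted by Benjamini-Hochberg across tested loci. Intervals are 95% intervals from that fit. Alternatives were DESeq2 1.42.0, library totals, no filter, limma 3.58.1 on log2(FPKM + 1) and log2(FPKM + 0.1), summed rows of a locus, each library left out, and the replicate number as a block. The fit was tested on simulated data.

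The 8 genes are always named; of every other list, up to 3 called genes with the largest absolute log2 change per comparison may be named, and further genes appear where a setting changes their call. The 8 genes and the lists were chosen with earlier results of these data known. Promoter and protein sequences are not analysed here.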

Additional observations from a re-analysis of the deposited data

Results flagged for a closer look

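In the test of unequal responses of the lines, 1 of 7 transcription factor genes and 1 of 7 target genes passed. None passed in the other pathway lists, beside 2.61% of all tested loci. Of the neighbour genes 1 passed, as did 3 of 3 embryo, 3 of 5 endosperm and 1 of 5 green tissue markers. With library totals alone 3 embryo, 1 endosperm and 1 green tissue markers passed. The call on OLE18 was lost with the replicate block (edgeR adjusted p = 0.0583). BZIP46, a transcription factor of the pathway, responded differently: 3.06 ± 0.82 CPM in sensitive control and 1.48 ± 0.46 under stress, against 2.50 ± 0.08 and 3.36 ± 0.23 in the tolerant line (SD, n = 3; log2 difference of responses 1.47 ± 0.35 SE, edgeR adjusted p = 0.048). EM1, a late embryogenesis gene, went from 130.8 ± 4.91 to 119 ± 5.99 CPM in the sensitive and from 155.4 ± 2.12 to 113.5 ± 2.62 CPM in the tolerant line (log2 difference -0.32 ± 0.08, adjusted p = 0.0465). Both calls were lost with library totals alone, without the filter on low counts, with the replicate block and on leaving out most single libraries. The call on BZIP46 was also lost with limma on log2 FPKM (adjusted p = 0.0643 and 0.0945). The neighbour of ABA8OX3, the alpha-amylase gene LOC_Os09g28400, differed in response with an adjusted p of 8.48e-07; its levels stand in the last paragraph of the results.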

How the results depend on the processing

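The calls on NCED4, NCED5, ABA8OX1 and ABA8OX3 under stress, in each line, and on NCED4 between lines in control kept their direction and side of the threshold in every alternative run. With DESeq2, 2 of the 8 genes were lower in the sensitive line under stress (as with counts divided by 4), 2 were lower in the tolerant line in control, 1 was higher there under stress (as with counts divided by 4 and with log2(FPKM + 1)), and in the difference of responses 1 was higher and 1 lower; over all loci it called 3018, 1971 and 1752 in the last 3 comparisons. Library totals alone and both FPKM scales left 1 gene lower in the tolerant line under stress, and library totals called 696 loci between lines under stress. The reversed values were of differences that the edgeR test did not call: NCED1 in the sensitive line at 0.40 with library totals, 0.24 and 0.38 on the FPKM scales; ZEP1 there at 0.12, 0.11 and 0.12; and NCED1 between lines under stress at 0.0039 with DESeq2 and 0.0058 with library totals. The summed NCED level (log2 stress over control) was 0.33 and 0.39 in FPKM in the sensitive and tolerant line, -0.17 and 0.01 in TMM-scaled CPM, and -0.08 and 0.07 in FPKM divided by the TMM factor, a scale added after the data were seen; the summed ABA8OX level was 1.19 and 1.20, then 0.73 and 0.87, then 0.78 and 0.88. On log2(FPKM + 1), called changes shrank for NCED5 (-1.03 sensitive, -0.46 tolerant), ABA8OX3 (0.78 sensitive) and NCED4 between lines in control (-0.64). The causes were not tested.

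Leaving out each library gave these ranges. The number of the 8 genes lower was 1 to 2 in the sensitive line, the tolerant line and between lines in control; between lines under stress 0 to 1 were lower and 0 to 1 higher, as in the difference of responses. All called loci numbered 1098 to 1650 between lines in control (lowest without the first tolerant control library) and 672 to 1065 under stress. NCED1 ranged from -0.12 to 0.07 in the sensitive line, from -0.67 to -0.19 in the tolerant line and from -0.21 to 0.27 between lines under stress; ZEP1 ranged from -0.0048 to 0.14 between lines under stress and from -0.19 to 0.01 in the difference of responses, where NCED3 ranged from -0.17 to 0.14.

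Same-numbered libraries had correlations of deviations of -0.012 to 0.029 over 18 pairs, and differently numbered ones of -0.024 to 0.02 over 36 pairs. These ranges overlap, and values this small do not settle whether the numbers pair the libraries. With the replicate block NCED1 in the sensitive line was 0.004, NCED3 there passed (adjusted p = 0.0494), and no other call among the 8 genes changed.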
